A study of Mus musculus with 20 samples.

Results

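The genes of mitochondrial and peroxisomal fatty acid oxidation were examined in visceral adipose tissue (VAT) of 20 mice, with 1 Agilent microarray of 1 colour per mouse. The set holds 33 genes, 23 assigned to mitochondria and 10 to peroxisomes, of 25619 genes tested on the array. The class was set by gene name, and the location of each protein was not tested. A member was any spot that is not a control and carries the name of a listed gene, so that no measured value entered the choice, although the list was drawn up with earlier results of these data known. All animals were C57bl/6J males of the third generation (F3) of a supplemented line, with VAT taken from the epididymal area after fasting. The Ref group (n = 6) came from the control lineage, whose growing diet held sunflower oil rich in oleic acid, and ate a low-fat reference diet during the challenge. The HFoleic group (n = 6) came from the same lineage and ate a diet high in fat and sucrose. The HFepa group (n = 8) ate that obesogenic diet too but came from the omega 3 lineage, given fish oil, mainly as a source of eicosapentaenoic acid (EPA). No group from the EPA lineage ate the reference diet, so that HFepa vs. Ref differs in diet and lineage at once. The age of the mice is not given in the labels. Each array was a separate mouse, no 2 arrays held identical values, and RNA below the study's quality limit was left out before hybridization. The 3 comparisons ask how the obesogenic diet altered these genes in the control lineage, how far the EPA lineage on that diet was from Ref, and whether the lineages differed on the same diet.

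Long-chain fatty acids are oxidized in mitochondria after Cpt1 has loaded them on carnitine, a carrier has moved the ester inward and Cpt2 has handed the chain back to coenzyme A (CoA). Each turn of the spiral then uses an acyl-CoA dehydrogenase, which passes its electrons to the electron transfer flavoprotein, followed by hydration, a second dehydrogenation and cleavage by a thiolase. Peroxisomes take very long, branched and polyunsaturated chains through ABC transporters, shorten them with acyl-CoA oxidases, bifunctional proteins and their own thiolases, and send shortened chains on as carnitine esters. In white adipocytes, which mainly store and release fat, both routes exist at a lower capacity than in brown adipocytes or liver, and many of the genes are known targets of the PPAR receptors.

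Levels are log2 intensities of the spot's median signal after quantile normalization, and a gene was read on its brightest tested probe. Differences come from 1 limma model over all 20 arrays with p values adjusted by Benjamini–Hochberg over the 39391 tested probes, and a gene is called at an adjusted p below 0.05. All 33 members were well above background on all 20 arrays. Per array, 66.06% to 71.88% of spots exceeded background clearly, the arrays were spread over 3 slides that each held all 3 groups, and no spot was saturated. Of 8 adipocyte markers, 1 was called higher and 2 lower in HFoleic vs. Ref (37.5%, beside 31.8% of all genes). Their mean level lay between 15.82 and 16.17 in every mouse, which fits the labelled tissue. In contrast, the mean of 8 macrophage markers was 11.69 to 12.38 in Ref, 12.78 to 13.82 in HFoleic and 11.70 to 13.78 in HFepa, and that of 6 markers of lipid-associated macrophages 10.63 to 11.44, 12.95 to 14.43 and 11.12 to 14.70. In HFoleic vs. Ref all 8 macrophage markers were called, 7 higher and 1 lower, and all 6 of the other list were higher. Progenitor and fibroblast markers averaged 12.43 to 13.01 in Ref, 12.99 to 13.62 in HFoleic and 12.54 to 13.20 in HFepa (2 of 6 higher in HFoleic vs. Ref), and red blood cell markers 15.72 to 16.32, 14.87 to 15.79 and 15.39 to 15.98 (2 of 3 lower). Hepatocyte markers differed between single mice within each group, from 7.38 to 12.54 over all mice, and none was called. Epididymis markers (2 of 7 tested) averaged 5.45 to 8.11 in Ref, 5.38 to 6.42 in HFoleic and 5.18 to 8.36 in HFepa. Testis markers (4 of 6 tested) averaged 6.03 to 8.42, 5.87 to 9.06 and 5.86 to 8.10. Of these 2 lists, 1 testis marker was called lower in HFoleic vs. Ref. From the same expression data the paper estimated cell type proportions with the software CIBERSORT, and it reported no difference in the main types. In bulk tissue, fewer cells of a type and less RNA per cell cannot be told apart. The part of these markers in the results for fatty acid oxidation was not tested.

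In HFoleic vs. Ref, of the genes assigned to mitochondria, Acot2, Acad11, Acad10, Crat, Eci1 and Acadvl fell and Cpt1a rose. Acad9 was called lower on its brightest probe, on which it is counted here, but higher on its 3 other probes. Of the peroxisomal genes, Abcd2 and Acox3 rose, the latter not called with slide as a block (adjusted p = 0.0617). That is 10 of 33 members called (30.3%), beside 31.8% of all genes tested, so the number of calls is near the background and is not a result about the members. By class, 8 of 23 mitochondrial genes were called, 7 lower and 1 higher, beside 16.7% of all genes called lower and 15.2% called higher. Of 10 peroxisomal genes 2 were called, both higher (20%). The median log2 fold change was -0.05 for the mitochondrial genes and 0.18 for the peroxisomal genes, against -0.04 for all genes tested. For 4 members the mice of the groups did not overlap, beside 14% of all genes. Acadvl and Acox3 lay close to the threshold, with the calls kept in 8 and 11 of the 20 fits that left out 1 mouse. Some members lay just beyond it, and on the authors' own log2 values Acadm, Hadhb, Acaa2 and Hsd17b4 were called higher as well, for 14 members beside 33.3% of all genes.

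**Figure D1:**
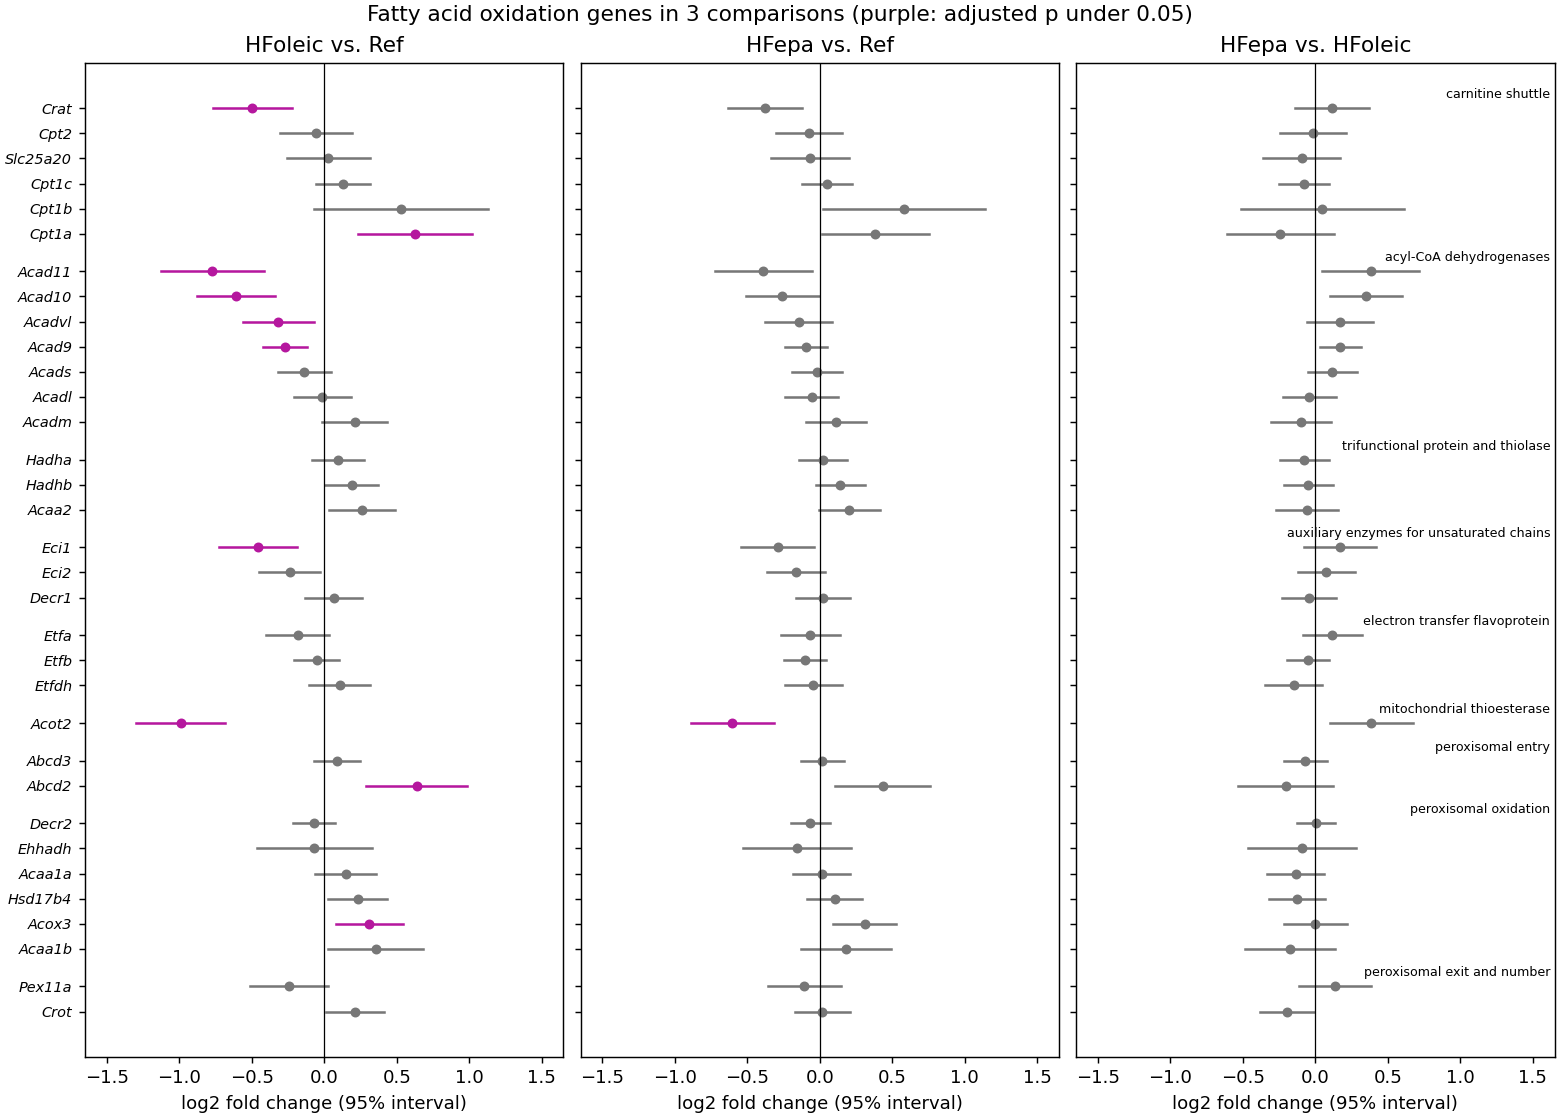
Log2 fold change with its 95% interval for the 33 genes (rows, grouped by role) in the 3 comparisons (1 panel each), with genes called at an adjusted p below 0.05 in purple. There are 10 purple genes in HFoleic vs. Ref, 1 (Acot2) in HFepa vs. Ref and none in HFepa vs. HFoleic.

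The carnitine shuttle held calls in opposite directions. Cpt1a, the liver-type carnitine palmitoyltransferase that also serves white fat, had its lowest, median and highest level at 11.61, 12.37 and 12.68 in Ref, 12.49, 13.03 and 13.28 in HFoleic, and 12.18, 12.62 and 13.18 in HFepa. Only the top of Ref reached into HFoleic, while HFepa spanned both. Cpt1a was 0.62 higher on the log2 scale in HFoleic than in Ref (standard error 0.19, 95% interval 0.23 to 1.02, adjusted p = 0.0167). Crat, which exchanges acetyl groups between CoA and carnitine, ran from 13.72 to 14.37 in Ref (median 14.04), from 13.29 to 13.83 in HFoleic (median 13.48) and from 13.38 to 14.18 in HFepa (median 13.56). It fell by 0.50 in HFoleic vs. Ref (adjusted p = 0.00717). A second, dim Crat probe had a difference of -0.21 and was not called. Cpt2, the inner-membrane transferase, had means of 14.10 ± 0.31 (SD, n = 6) in Ref, 14.05 ± 0.17 (n = 6) in HFoleic and 14.03 ± 0.13 (n = 8) in HFepa. The 95% interval of its difference in HFoleic vs. Ref, -0.30 to 0.19, spans 0. Neither Slc25a20, the carnitine-acylcarnitine carrier (0.03), nor Cpt1c, the brain form (0.13), was called.

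Cpt1b, the muscle-type enzyme, was 0.53 higher in HFoleic than in Ref (standard error 0.29, adjusted p = 0.171) and 0.58 higher in HFepa than in Ref (0.27, adjusted p = 0.225), and neither passed the test. Its levels were 6.61 to 7.07 in Ref (median 6.91), 6.74 to 7.70 in HFoleic (median 7.47) and 6.82 to 9.24 in HFepa (median 7.17). The value of 9.24 belongs to HFepa mouse 7, and the next HFepa mouse was at 7.63. In that mouse Ucp1, the uncoupling protein of brown fat, was at 12.40, Cidea at 14.01 and Cox7a1 at 13.06, each the highest of all mice. That mouse was not the highest for the other 3 markers of the list, with Elovl3 at 7.92 (HFoleic mouse 6 was at 8.39), Otop1 at 9.55 (HFoleic mouse 4 was at 10.49) and Dio2 at 5.78. The mean of the 6 brown or beige adipocyte markers in HFepa mouse 7 was 10.45, against 7.54 to 8.11 in Ref and 7.64 to 8.62 in HFoleic. In HFoleic vs. Ref, 2 of these 6 markers were called higher (33.3%, beside 31.8% of all genes). Cpt1b is itself known to be abundant in brown adipocytes, and the part of such cells in its level was not tested. Without HFepa mouse 7, Cpt1b rose in HFoleic vs. Ref by the same amount with a smaller error (0.53, standard error 0.15, adjusted p = 0.0104), which made 11 members called beside 31.5% of all genes. HFepa vs. Ref then gave 0.32 for Cpt1b (adjusted p = 0.217) and HFepa vs. HFoleic changed sign from 0.05 to -0.21 (adjusted p = 0.437).

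**Figure D2:**
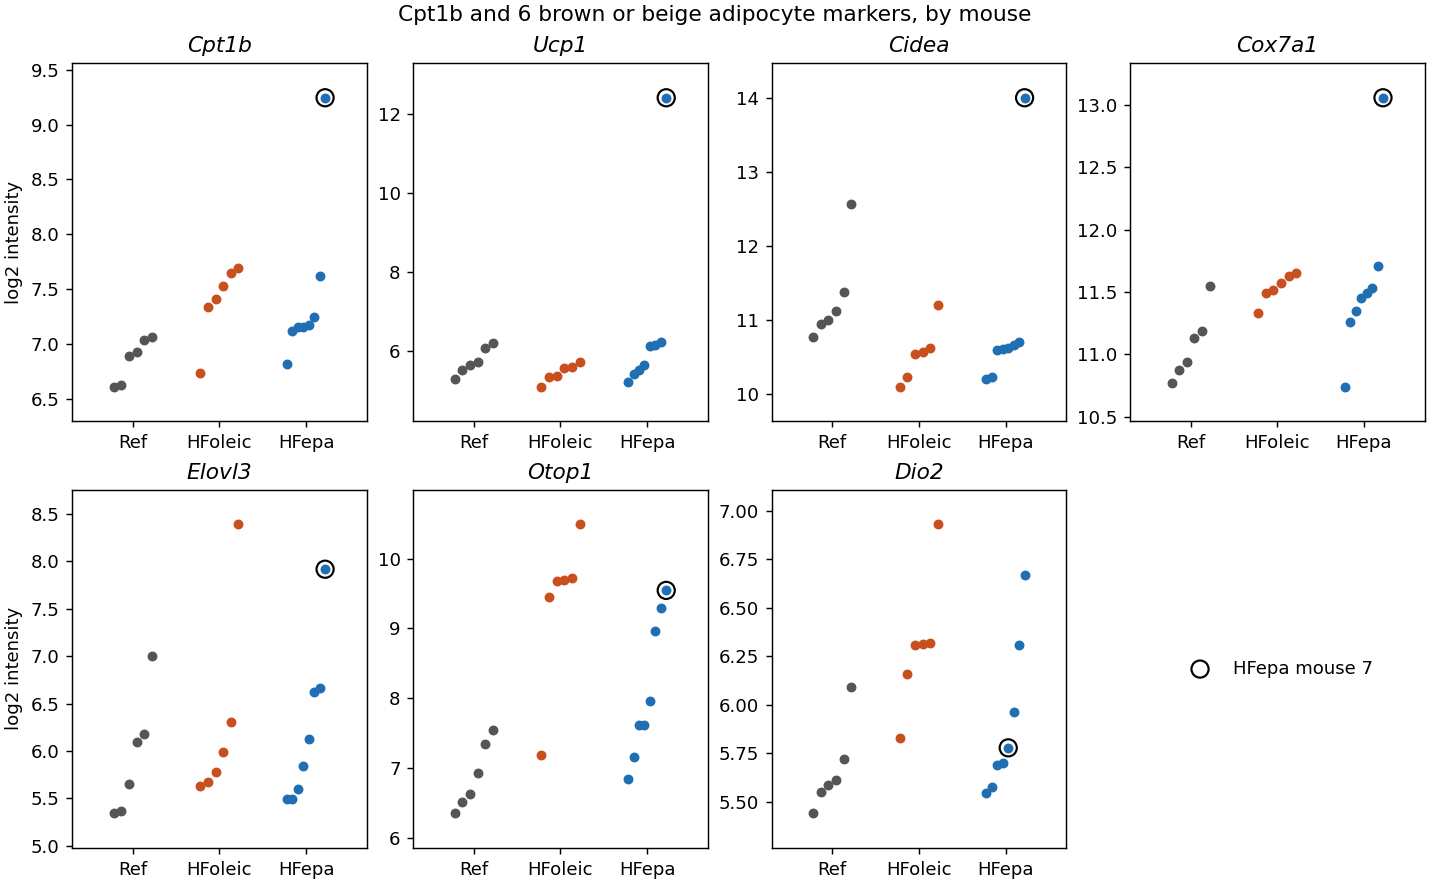
Log2 intensity of Cpt1b and of the 6 brown or beige adipocyte markers, with 1 point per mouse in the Ref, HFoleic and HFepa groups; each panel has its own scale. HFepa mouse 7, circled, is the highest point for Cpt1b, Ucp1, Cidea and Cox7a1, at 9.24, 12.40, 14.01 and 13.06, but not for Elovl3, Otop1 and Dio2.

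Of the 7 members grouped as acyl-CoA dehydrogenases, Acad11, Acad10 and Acadvl fell in HFoleic vs. Ref, beside 16.7% of all genes called lower. Acad9 had probes called in both directions. Acad11, which acts on hydroxylated fatty acids, had its lowest, median and highest level at 14.78, 15.21 and 15.38 in Ref, 14.10, 14.23 and 14.93 in HFoleic, and 14.05, 14.81 and 15.16 in HFepa. A single HFoleic mouse, at 14.93, reached the Ref range. It fell by 0.77 in HFoleic vs. Ref (standard error 0.17, 95% interval -1.13 to -0.41, adjusted p = 0.00253). Acad10, its close relative, ran from 9.50 to 9.96 in Ref, from 8.78 to 9.36 in HFoleic and from 9.02 to 9.78 in HFepa. All HFoleic mice lay below all Ref mice, with a fall of 0.61 (standard error 0.13, adjusted p = 0.0019). Acadvl, the enzyme for very long chains, fell by 0.32 from 14.88 ± 0.17 (SD, n = 6) to 14.57 ± 0.21 (n = 6), at an adjusted p of 0.0477. The classical enzymes for shorter chains were not called, although Acadm was near the threshold. For medium-chain Acadm the means were 15.42 ± 0.26 in Ref, 15.64 ± 0.13 in HFoleic and 15.54 ± 0.17 in HFepa, with a difference of 0.21 in HFoleic vs. Ref (95% interval -0.01 to 0.44, adjusted p = 0.144). It was called higher on the authors' values (0.25, adjusted p = 0.031) and with slide as a block (0.25, adjusted p = 0.0426). Acadl differed by -0.01 and Acads by -0.14.

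**Figure D3:**
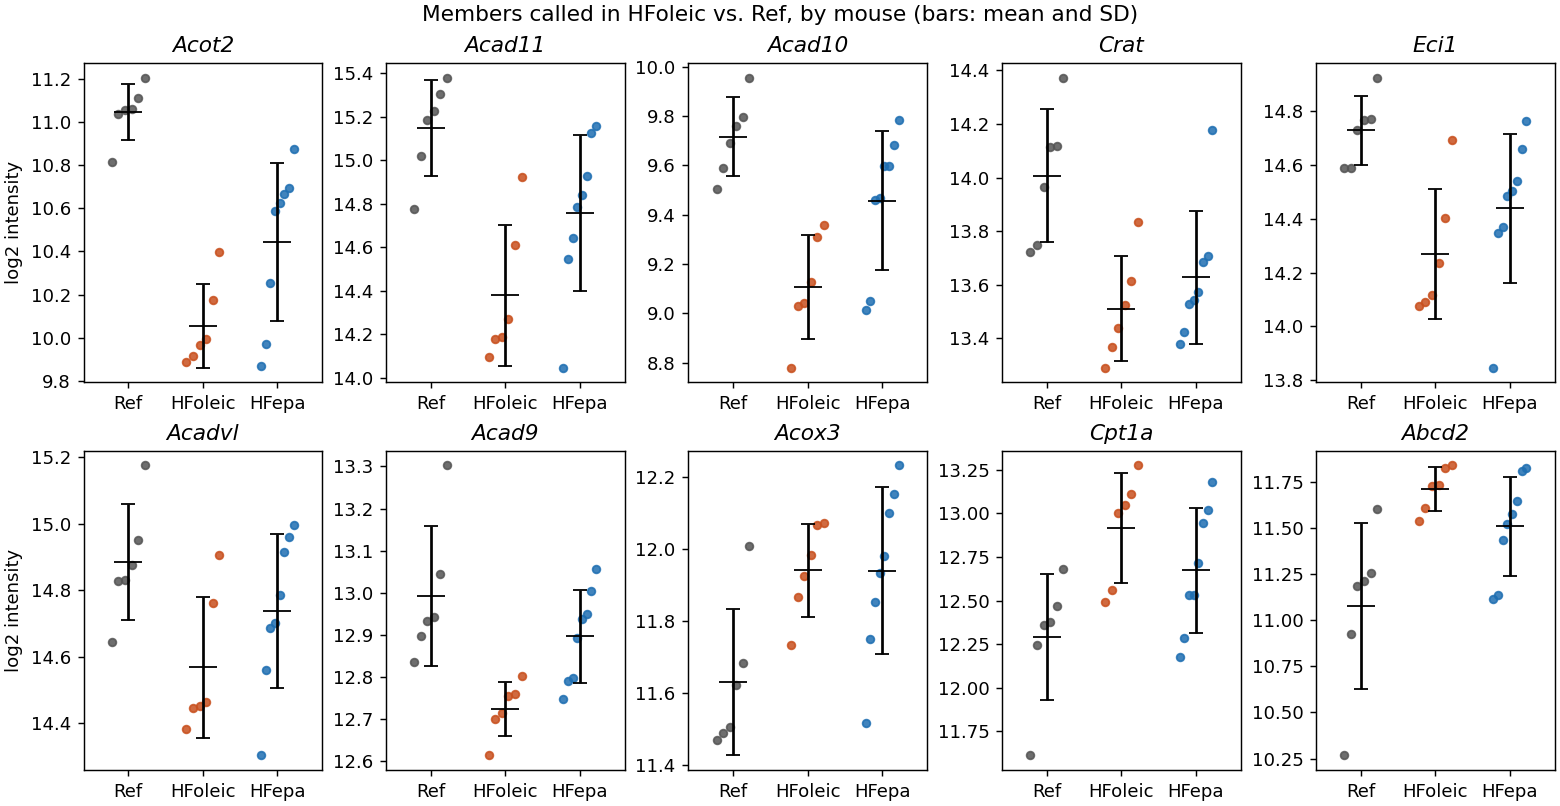
Log2 intensity of the 10 members called in HFoleic vs. Ref, ordered from the largest fall (Acot2) to the largest rise (Abcd2), with 1 point per mouse, the mean as a dash and the SD as a bar; each panel has its own scale. For Acot2, Acad10 and Acad9 no HFoleic mouse reached the Ref range, and in each panel the HFepa mice overlap both other groups.

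Downstream of the dehydrogenases, the members Hadha, Hadhb and Acaa2, which finish each round, were not called on their brightest probe in this fit. The paper lists Hadhb and Acaa2 among fatty acid degradation genes higher in HFoleic than in Ref, with Cpt1a, Acadm, Acaa1a and Acox3. Among the lower genes of that pathway it lists Echs1 and Hadh, which are not members, and the members Acadvl and Eci1. The trifunctional protein subunit Hadha, with hydratase and dehydrogenase activity, had means of 10.43 ± 0.21 in Ref, 10.53 ± 0.08 in HFoleic and 10.45 ± 0.12 in HFepa. Its difference in HFoleic vs. Ref was 0.09 (95% interval -0.08 to 0.27). Hadhb, the partner subunit with thiolase activity, differed by 0.19, and Acaa2, the mitochondrial thiolase, by 0.26 (adjusted p = 0.0747). On the authors' values both were called higher (Hadhb 0.22, adjusted p = 0.0308, Acaa2 0.29, adjusted p = 0.038), and Acaa2 was called in 4 of 12 alternatives, among them slide as a block (adjusted p = 0.0348) and the replicate block (adjusted p = 0.0248). None of Etfa, Etfb and Etfdh, which carry electrons from the dehydrogenases towards ubiquinone, was called, with differences of -0.18, -0.05 and 0.11. Among the enzymes that prepare double bonds for oxidation, Eci1 fell by 0.46 in HFoleic vs. Ref (adjusted p = 0.0104), with levels of 14.59 to 14.93 in Ref and 14.08 to 14.69 in HFoleic. Eci2, at -0.24, and Decr1, at 0.06, were not called.

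Acot2, a thioesterase of the mitochondrial matrix that frees fatty acids from CoA, showed the largest difference of the set on the brightest probes. Its lowest, median and highest level was 10.81, 11.06 and 11.21 in Ref, 9.89, 9.98 and 10.40 in HFoleic, and 9.87, 10.61 and 10.88 in HFepa. Every HFoleic mouse was below every Ref mouse, and all HFepa mice but 1 lay below the Ref range. In HFoleic vs. Ref, Acot2 fell by 0.99 (standard error 0.15, 95% interval -1.30 to -0.68, adjusted p = 3.61e-04). Acot2 has a near-identical cytosolic neighbour, Acot1, and the array's ability to tell the transcripts apart was not tested. The Acot2 probe lies at chr12:85334553-85334612 (mm9, the build of the files).

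Among the peroxisomal genes, an importer and an oxidase rose in HFoleic vs. Ref. Abcd2, a transporter of very long and polyunsaturated acyl-CoA, had its lowest, median and highest level at 10.27, 11.20 and 11.60 in Ref, 11.54, 11.73 and 11.84 in HFoleic, and 11.12, 11.55 and 11.83 in HFepa. Ref was spread widely and 1 Ref mouse reached the HFoleic range. Abcd2 rose by 0.64 (standard error 0.17, 95% interval 0.29 to 0.99, adjusted p = 0.00738), and its second probe rose by 0.45 (adjusted p = 0.0307). Abcd3, the major transporter of the peroxisomal membrane, was not called (0.09, 95% interval -0.07 to 0.25). Acox3, an oxidase for branched chains, rose by 0.31 (adjusted p = 0.04), from a range of 11.47 to 12.01 in Ref to 11.74 to 12.07 in HFoleic. Of its 4 probes only the brightest was called, and the others differed by -0.18 to 0.19.

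The bifunctional proteins and thiolases of peroxisomes were not called on their brightest probe. The paper lists Hsd17b4 and Acaa1a among peroxisome genes higher in HFoleic than in Ref. Ehhadh, the L-bifunctional protein, had means of 10.45 ± 0.46 in Ref, 10.38 ± 0.31 in HFoleic and 10.29 ± 0.27 in HFepa, and its interval in HFoleic vs. Ref was wide, from -0.47 to 0.33. Hsd17b4, the D-bifunctional protein, was at 14.86 ± 0.23, 15.09 ± 0.12 and 14.96 ± 0.14, with a difference of 0.23 in HFoleic vs. Ref (adjusted p = 0.081), and it was called higher on the authors' values (0.26, adjusted p = 0.0194). Acaa1a and Acaa1b are close copies of the peroxisomal thiolase, and cross-hybridization between them was not tested. For Acaa1a the means were 14.99 ± 0.22, 15.14 ± 0.08 and 15.01 ± 0.19, a difference of 0.15 (adjusted p = 0.282), while its dimmer probe rose by 0.47 (adjusted p = 0.00989). Acaa1b ranged from 12.13 to 12.58 in Ref, from 12.64 to 12.92 in HFoleic and from 11.82 to 13.10 in HFepa. All HFoleic mice were above all Ref mice, yet the difference of 0.36 missed the threshold (standard error 0.16, adjusted p = 0.0941), with an SD of 0.41 in HFepa entering the shared error, and it was called in the fit to Ref and HFoleic alone (adjusted p = 0.00602). Pex11a, which elongates peroxisomes before they divide, was at 14.01 ± 0.22, 13.77 ± 0.21 and 13.91 ± 0.25, a difference of -0.24 (adjusted p = 0.162). Crot, which forms carnitine esters of shortened chains, differed by 0.21 (adjusted p = 0.0979, called with slide as a block at 0.0401) and Decr2, a reductase for double bonds, by -0.07.

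Probes of the same gene did not always move together. Of the 55 probes of members, 20 were called in HFoleic vs. Ref, 9 higher and 11 lower, beside 30.8% of all probes, and 14 members had more than 1 probe. Acad9, a dehydrogenase that also helps to assemble respiratory complex I, was called in both directions. Its brightest probe, assigned to an Ensembl transcript at chr3:35971872-35971931 (mm9), fell by 0.27 (adjusted p = 0.00891), from 12.84 to 13.30 in Ref to 12.61 to 12.80 in HFoleic without overlap. The probes for its RefSeq mRNA, at chr3:35989955-35990014 and chr3:35990197-35990256, rose by 0.47 (adjusted p = 0.0031) and 0.43 (adjusted p = 0.00404), and the remaining probe, at chr3:35993490-35993549, by 0.39. The Acad9 call therefore has no direction for the gene as a whole. Hadhb showed the same split. A probe for its RefSeq mRNA at chr5:30503442-30503500 rose by 0.40 (adjusted p = 0.00259), a probe for an Ensembl transcript at chr5:30494754-30494813 fell by 0.44 (adjusted p = 0.0038), and the brightest, at chr5:30510925-30510984, was not called. These signs held on the processed signal, after normexp correction, after median centring, on the authors' values and with slide as a block. All 4 Acad11 probes fell, by 0.63 to 1.26. The files give no exon or UTR for these positions, so the part of a transcript each probe reads was not determined.

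**Figure D4:**
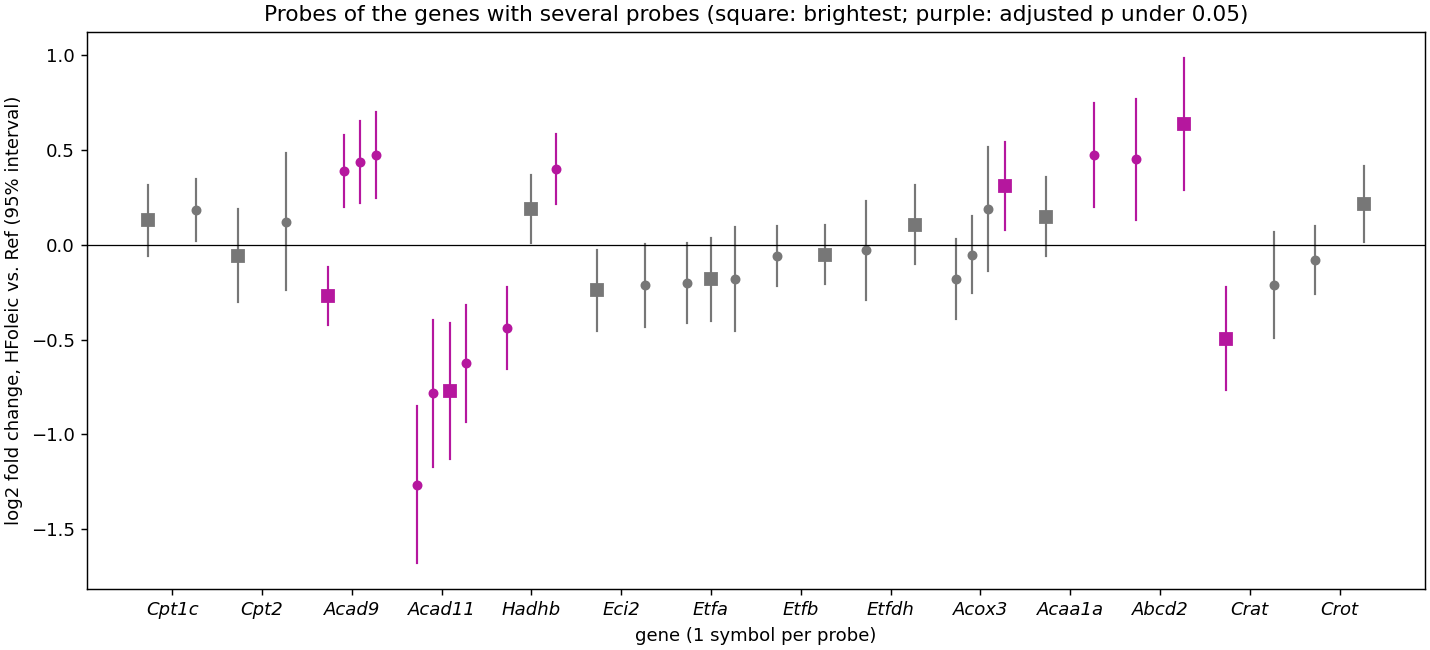
Log2 fold change in HFoleic vs. Ref with its 95% interval for each probe of the 14 genes with several probes; squares mark the brightest probe and purple marks an adjusted p below 0.05. Acad9 and Hadhb have purple probes on both sides of 0, whereas the 4 Acad11 probes are all below it.

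Promoter windows, from 250 bases before to 50 after the gene start, are shown for members that the results turn on: the called genes Cpt1a, Acadvl and Acot2, Acadm as a dehydrogenase that was not called, and Hadhb. They are RefSeq sequences on GRCm38.p6, which is not the build of the probe positions, and 26 of the 33 members were matched, with 27 windows. Capitals mark AGGTCA, the core motif that PPAR and other nuclear receptors can bind, or TGACCT where it stands on the opposite strand. Both strands were searched, and no overlap with other motifs arose because each window shown has at most 1 match.
Cpt1a, chr19:3323051-3323350, plus strand: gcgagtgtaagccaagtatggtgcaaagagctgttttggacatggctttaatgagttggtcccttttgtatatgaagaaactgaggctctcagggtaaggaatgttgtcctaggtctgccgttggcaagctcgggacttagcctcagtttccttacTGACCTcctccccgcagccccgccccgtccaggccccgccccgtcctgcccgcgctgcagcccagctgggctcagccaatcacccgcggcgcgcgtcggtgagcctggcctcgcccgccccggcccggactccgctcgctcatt
Acadvl, chr11:70015379-70015678, minus strand: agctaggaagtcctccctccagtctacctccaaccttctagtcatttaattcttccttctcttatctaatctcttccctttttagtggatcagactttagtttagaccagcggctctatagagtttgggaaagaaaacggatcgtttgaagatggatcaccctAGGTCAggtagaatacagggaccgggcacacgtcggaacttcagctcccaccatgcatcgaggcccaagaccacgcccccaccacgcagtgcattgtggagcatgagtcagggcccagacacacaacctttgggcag
Acadm, chr3:153944594-153944893, minus strand: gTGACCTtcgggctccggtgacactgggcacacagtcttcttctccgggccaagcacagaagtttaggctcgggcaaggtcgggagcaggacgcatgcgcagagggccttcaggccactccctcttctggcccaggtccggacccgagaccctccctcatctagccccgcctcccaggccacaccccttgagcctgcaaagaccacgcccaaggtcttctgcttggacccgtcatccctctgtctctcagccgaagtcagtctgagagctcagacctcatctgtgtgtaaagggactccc
Hadhb, chr5:30155003-30155302, plus strand: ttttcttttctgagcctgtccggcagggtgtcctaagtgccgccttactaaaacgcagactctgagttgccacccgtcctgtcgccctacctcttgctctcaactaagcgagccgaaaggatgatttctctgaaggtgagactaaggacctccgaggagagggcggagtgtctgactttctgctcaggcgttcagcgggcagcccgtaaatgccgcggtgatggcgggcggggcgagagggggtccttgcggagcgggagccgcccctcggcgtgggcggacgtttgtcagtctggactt
Acot2, chr12:83987611-83987910, plus strand: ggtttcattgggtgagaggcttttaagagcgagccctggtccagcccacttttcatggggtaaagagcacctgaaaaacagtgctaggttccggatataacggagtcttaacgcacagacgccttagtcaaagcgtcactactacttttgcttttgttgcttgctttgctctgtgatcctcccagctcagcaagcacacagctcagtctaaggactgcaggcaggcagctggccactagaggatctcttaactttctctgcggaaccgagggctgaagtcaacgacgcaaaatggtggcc
Relative to the start, the motif began at base -94 in Cpt1a, -87 in Acadvl and -249 in Acadm. It was present in 4 of the 27 windows of members (14.8%, Cpt1c included), beside 16.3% of all 32851 promoters in the table. The direct repeat of AGGTCA with any 1 base between the copies, the form bound by PPAR with RXR, was in 0 of 27 windows and in 0.0396% of all. Cpt1a, which rose, and Acadvl, which fell, both carry the motif, and Acot2 does not. The windows of Acad11, Acad10, Eci1 and Acox3, called too but not shown, lack it, and Abcd2, Crat and Acad9 had no window. Only exact copies within the windows were counted, so inexact or distant sites were not examined. The Hadhb window shares 228 bases with that of Hadha, whose start lies 273 bases away on the opposite strand, and both genes lacked the motif there.

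Genes around this pathway that are not members were called in both directions in HFoleic vs. Ref. Of 21 other mitochondrial oxidation and ketone body genes, 3 were higher and 9 lower (57.1%, beside 31.8% of all genes). The genes with the smallest p were Acacb, which makes the malonyl-CoA that inhibits Cpt1 (-1.83, adjusted p = 4.71e-04), the acyl-CoA synthetase Acsl5 (0.45, adjusted p = 5.33e-04) and the carnitine importer Slc22a5 (-0.44, adjusted p = 0.00233). Of 24 other peroxisomal genes, 4 were higher and 6 lower, led by the peroxisomal thioesterases Acot3 (-1.40, adjusted p = 1.38e-04) and Acot4 (-1.96, adjusted p = 2.94e-04) and by Phyh of alpha-oxidation (-0.87, adjusted p = 0.0015). Among 15 peroxins, which build the organelle, 1 was higher and 5 lower, with Pex3 at -0.60 and Pex11g at -0.38. Of 15 control genes of the PPAR and PGC-1 system, 2 rose and 4 fell, with Rxrg at 0.78, Esrra at 0.52 and Sirt1 at -0.40. Of 11 other PPAR targets, 3 rose and 2 fell, with the pantetheinase Vnn1 at -1.34, Angptl4 at 0.21 and Ucp2 at 0.97. The median difference of the 5 lists lay between -0.23 and 0.02.

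In HFepa vs. Ref, Acot2 was the only member called. It fell by 0.60 (standard error 0.14, 95% interval -0.89 to -0.32, adjusted p = 0.0311), with the highest HFepa mouse, at 10.88, inside the Ref range. An unadjusted p below 0.05 was reached by 9 members, a count not set against all genes and so not a result about the members. The 1 call in 33 members (3.03%) stands beside 2.46% of all genes, 1.42% lower. That background of 630 genes itself depended on single mice: it was 101 when Ref mouse 6 was left out and 1803 when HFepa mouse 3 was. The call was lost without Ref mouse 3, 4, 5 or 6 (adjusted p = 0.0709, 0.0618, 0.0628 and 0.0693) and without HFepa mouse 1, 5 or 6 (adjusted p = 0.0556, 0.0517 and 0.0602), at folds of -0.61 to -0.52. A second member joined it, for 2 in all, without Ref mouse 7 (Abcd2, higher), HFepa mouse 2 (Acox3, higher) or HFepa mouse 3 (Crat, lower), where 4.74%, 2.31% and 7.07% of all genes were called. Other differences that missed the threshold were -0.38 for Crat (adjusted p = 0.0916), 0.31 for Acox3 (0.106), 0.43 for Abcd2 (0.127), -0.39 for Acad11 (0.172) and 0.38 for Cpt1a (0.225). The median was -0.07 over the mitochondrial and 0.02 over the peroxisomal genes, against -0.02 for all genes. No member's groups failed to overlap, beside 1.04% of all genes. Outside the set, Acot3 (-0.71) and Acot4 (-1.02) were lower, Pex3 was lower (-0.49) and Acsl5 higher (0.27).

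In HFepa vs. HFoleic, no member and none of the 25619 genes was called by limma (0% of genes). The unadjusted p was below 0.05 for 5 members, a count not set against all genes and so not a result about the members. Those 5 were Acot2, 0.39 higher in HFepa (95% interval 0.10 to 0.67, adjusted p = 0.144), Acad11, 0.38 higher (0.05 to 0.71, adjusted p = 0.189), Acad10, 0.35 higher (0.10 to 0.60, adjusted p = 0.137), Acad9 on its brightest probe, 0.17 higher (adjusted p = 0.169), and Crot, 0.20 lower (-0.38 to -0.01, adjusted p = 0.224). The other Acad9 probes had the opposite sign, at -0.30, -0.27 and -0.24 (adjusted p = 0.131, 0.131 and 0.193), each with an unadjusted p below 0.05. Acad9 therefore had no single direction here either. The count of genes called rose from 0 to 1966 without HFepa mouse 1 and to 1118 without HFoleic mouse 1, and with slide as a block it was 810, with no member among them. Levels of all members overlapped between the lineages, beside 0.355% of all genes without overlap. Without HFepa mouse 1, Acad10, Acad11 and Acot2 were called higher in HFepa (3 of 33 members, adjusted p = 0.0405, 0.0422 and 0.0432), where 7.7% of all genes were called. HFepa mouse 1 had the lowest Acad11 level of its group (14.05), and in HFepa mouse 6, at 9.87, Acot2 was lower than in any HFoleic mouse. These mice had the highest macrophage markers of their group, at 13.78 and 13.51 against 11.70 to 12.69 in the other HFepa mice, and lipid-associated macrophage markers at 14.70 and 14.04 against 11.12 to 12.51, and the part of these markers in the levels was not tested. For Cpt1a the difference was -0.24 (95% interval -0.61 to 0.13) and for Abcd2 -0.20 (-0.53 to 0.12), and both intervals span 0.

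As a description of the classes, each member's level was centred on its mean over the 20 arrays and averaged within a mouse. For the mitochondrial genes these averages ran from -0.15 to 0.24 in Ref, from -0.13 to 0.05 in HFoleic and from -0.21 to 0.11 in HFepa. For the peroxisomal genes they ran from -0.33 to 0.09, from 0.03 to 0.17 and from -0.15 to 0.16. The peroxisomal averages of HFoleic mice were thus all above 0, and the Ref and HFepa mice lay on both sides of it. In both classes the ranges of the groups overlapped.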

How the data were processed

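Gene expression was measured in VAT of 20 mice, grouped by the diet and treatment in the labels. The authors extracted spot intensity values from scanned images with Agilent Feature Extraction 10.10.1.1, and the deposited intensity values are linear and not normalized. A second deposited file holds log2 values of 38168 probes, which the authors made from the median signal by filtering, whose rule is not given in the sources used here, and quantile normalization.

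Here, control spots were left out, spots marked as non-uniform or population outliers were missing, and a probe was tested if 6 or more arrays showed it well above background. The log2 median intensities were then quantile normalized, and spots of a probe averaged. One model with a mean per group was fitted to all arrays with limma 3.58.1 in R 4.3.3, which gave all adjusted p values of the text. Plots were made with matplotlib 3.10.9. Members and lists were chosen with earlier results of these data known. Group values are given for members called with an absolute log2 fold change of 0.5 or more in HFoleic vs. Ref, members called in another comparison, and 10 members fixed by name, Cpt1a, Cpt1b, Cpt2, Acadm, Hadha, Acaa1a, Acaa1b, Ehhadh, Hsd17b4 and Pex11a. Of each pathway list, the 3 genes with the smallest p in HFoleic vs. Ref are named, except that 1 is not reported here. Only the fit of the model was first tested on simulated data, and the other steps were not tested in this way. Alternatives were other signals and scalings, the authors' values, other filters, slide or replicate number as a block, the compared groups only, other probe rules and each array left out. The rule by the brightest RefSeq mRNA probe and the check of single probes were added after seeing the data. The number of mice limits the precision.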

Additional observations from a re-analysis of the deposited data

Results flagged for a closer look

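Among the 99 combinations of a member and a group, 7 had a mouse far from the rest of its group, and chance alone flags about 1 in 20 groups. Cpt1b was at 9.243 in HFepa mouse 7, with the next mouse at 7.626. Slc25a20 was at 10.59 in Ref mouse 5 and next at 10.01. Eci1 was at 13.84 in HFepa mouse 1, where Etfa, at 15.17, was apart too, with the next mice at 14.35 and 15.54. In HFepa mouse 3, Ehhadh was at 10.89 and Crat at 14.18, above the next mice at 10.33 and 13.71. Acaa1b was lowest in Ref mouse 3, at 12.13, with the next at 12.43.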

How the results depend on the processing

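For HFoleic vs. Ref, the count of members called was 7 to 14 over the 12 alternatives and 8 to 12 with 1 mouse left out, beside 20.7% to 35.5% and 26% to 34.7% of all genes. Acot2, Acad11, Acad10, Cpt1a and Abcd2 were called in all of them, and the 10 called members kept their sign within each of the 3 slides. The members were called on these same arrays, so the signs within slides are no independent check, and slide 2 held only 1 HFoleic mouse. Same-numbered mice of different groups were not regularly alike (5 of 16 same-numbered pairs correlated above 0.1, range -0.587 to 0.559). This cannot show whether the numbers pair mice. The paper states that HFoleic and HFepa mice were matched for body weight, and the labels do not say whether the numbers follow that matching. With the replicate number as a block, 7 members were called in HFoleic vs. Ref (21.1% of all genes), 0 in HFepa vs. Ref and 0 in HFepa vs. HFoleic, with 4 mitochondrial genes lower and 1 peroxisomal gene higher, and Ehhadh turned to 0.11. The HFepa vs. Ref count was also 0 in a fit to the compared groups, and 0 to 2 with 1 mouse left out. HFepa vs. HFoleic gave 0 to 3. Mitochondrial genes called lower numbered 6 to 8 and peroxisomal genes called higher 1 to 3 with 1 mouse left out, and the latter 1 without a filter on dim probes. Acadvl lost its call after median centring, without the filter and with slide or replicate as a block, and Acox3 without the filter, with either block and as the mean of its probes. Crat and Eci1 lost theirs with the replicate block, and Acad9 after median centring (adjusted p = 0.0847). Acad9 reversed to 0.26 as the mean of its probes and 0.43 on its RefSeq mRNA probe. Differences near 0 changed sign: Acaa1a in HFepa vs. Ref was -0.0372 on the processed signal, and Cpt2 in HFoleic vs. Ref was 0.0317 as the mean of its probes. With 1 mouse left out, the range was -0.0538 to 0.0721 for Acaa1a and -0.0325 to 0.0866 for Hadha in HFepa vs. Ref. Cpt2 ran from -0.136 to 0.0542 in HFoleic vs. Ref, -0.153 to 0.0375 in HFepa vs. Ref and -0.0702 to 0.0215 in HFepa vs. HFoleic. Ehhadh ran from -0.188 to 0.0704 in HFoleic vs. Ref and -0.175 to 0.00203 in HFepa vs. HFoleic, and Cpt1b from -0.208 to 0.138 in the latter. Slide as a block called 810 genes in HFepa vs. HFoleic and none of the members. The share of calls that were higher in HFoleic vs. Ref was 47.6%, and 42.8% to 55.8% over the alternatives. The causes were not tested.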
